A study of Mus musculus with 48 samples.

Results

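Pyramidal cells of dorsal CA3 were compared with granule cells of the dorsal dentate gyrus (DG) in mouse, with 3 RNA sequencing libraries per group. The members were all 37620 Ensembl gene rows of the deposited count table, read in 6 of its 48 libraries, and spike-in and summary rows were left out. Of these genes, 12208 had enough reads in the 6 libraries to be tested. Neurons carrying a fluorescent label were picked by hand from microdissected slices, and their total RNA was amplified before sequencing. The labels name 16 cell populations, of which dorsal CA3, dorsal DG and, as a second pair, ventral CA3 and ventral DG entered tests. No treatment is given for any of these groups. Strain, genotype, the line or promoter that drove the fluorescent label, age and sex are not given in the sources used here. The series describes the libraries of a population as biological replicates, but no label ties them to separate animals, so the p-values measure only the spread between these samples, which may be technical.

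Granule cells are the principal neurons of the dentate gyrus. Their axons, the mossy fibres, end in large, zinc-rich boutons on the proximal dendrites of CA3 pyramidal cells, where release is strongly facilitated by repeated activity. CA3 pyramidal cells also excite one another through recurrent collaterals and send Schaffer collaterals to CA1. The comparison therefore sets the presynaptic neuron of the mossy fibre synapse against its postsynaptic partner.

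The CA3 libraries held 21.5, 25.1 and 23.4 M gene reads (M, 1e6 reads) and the DG libraries 7.85, 6.78 and 6.87 M. Other measures moved with the group as well. Spike-in reads made up 0.0875% to 0.408% of reads in CA3 and 2.68% to 4.06% in DG, reads outside annotated genes 21.1% to 23.6% and 38.2% to 43.3%, and ribosomal protein genes 0.313% to 0.323% and 0.737% to 0.836% of gene reads. Between 15580 and 17487 genes had a read in a CA3 library and between 13521 and 13959 in a DG library. Among genes over 10 CPM (counts per 1e6 gene reads after scaling), the median SD of log2 CPM was 0.196 among CA3 libraries and 0.525 among DG libraries. The part of these differences in the results was not tested. With CA3 reads thinned to the depth of the DG libraries, an alternative chosen after seeing the data, 2365 genes were called in place of 2465, 1159 higher in CA3 and 1206 higher in DG.

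The labels were set against marker genes of both cell types. These lists were chosen with earlier results of these data known, so they are not an independent check. Of 15 granule cell genes, 14 were higher in DG, and of 15 CA3 genes, 11 were higher in CA3, with none called the other way, where 20.2% of all genes tested were called, 11.1% higher in CA3 and 9.09% higher in DG. With any one library left out, 12 to 14 granule cell genes were called higher in DG and 10 to 11 CA3 genes higher in CA3. Without DG replicate 1, 1 granule cell gene was called higher in CA3. In RNA from sorted cells, fewer cells of a type and less RNA per cell cannot be told apart. Prox1, a homeodomain transcription factor that marks granule cells, was at 7.68, 0 and 0 CPM in the CA3 libraries and 1075, 1499.5 and 1062 CPM in the DG libraries. All 140 Prox1 reads of the CA3 group fell in 1 library, and the groups did not overlap (log2 fold change -8.96 ± 1.35, adjusted p = 0.00871, and adjusted p = 0.0952 with no filter on low counts). Dkk3, a secreted Dickkopf-family protein, was at 1236, 1229 and 1261 CPM in the CA3 libraries and 3.68, 1.10 and 1.51 CPM in the DG libraries (log2 fold change 9.14 ± 0.42, adjusted p = 4.71e-06). Every CA3 library stood far above every DG library for this gene. Spock1, which encodes the proteoglycan testican-1, was at 1100.4 ± 7.02 CPM in CA3 and 2.95 ± 3.32 CPM in DG (SD, n = 3; log2 fold change 8.50 ± 0.78, adjusted p = 8.05e-05), and Nectin3, an adhesion protein of the CA3 side of the synapse, at 401 ± 14.2 CPM in CA3 and 4.31 ± 3.79 CPM in DG. Here and below, ± after a mean level is the SD over 3 libraries. After a log2 fold change, ± is an SE taken from log2(CPM + 0.5) of the libraries. The fold change itself comes from the fit, so this SE can be too small where levels are near 0. Coch had no read in DG and 8.75 ± 2.35 CPM in CA3, at least 21.8-fold higher. A floor of 3 reads per library stands for groups with no read, and it covers counting error only.

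The granule cell genes Dsp (desmoplakin), Rfx3 (a transcription factor) and Calb1 (the calcium buffer calbindin) had mean levels of 369.9, 1252 and 268 CPM in DG and of 0.391, 69.8 and 0.859 CPM in CA3. The adjusted p of Calb1 was 0.002, and 0.066 with no filter on low counts. Dock10, Stxbp6, Maml2, Glis3 and Tdo2 were higher in DG by log2 fold changes of -6.09, -4.55, -3.59, -7.47 and -2.95. Sema5b, a semaphorin, was the granule cell gene that was not called, at 49.0, 54.3 and 50.4 CPM in the CA3 libraries and 32.1, 19.9 and 17.0 CPM in the DG libraries. Its levels lay above DG in all 3 CA3 libraries (adjusted p = 0.0708), while in ventral cells it was lower in CA3 (log2 fold change -3.56, adjusted p = 0.000252, and 0.000444 for the difference between dorsal and ventral cells). On the CA3 side, Bok, Elavl2, Cpne4, Socs2, Prss35 and Iyd were higher in CA3 by log2 fold changes of 3.32, 4.69, 2.13, 7.95, 6.99 and 5.32. The adjusted p of Elavl2 was 0.0791 with no filter on low counts. St18, Homer3, Galnt3 and Plagl1 were not called, and St18 stood at 184 ± 71.5 CPM in CA3 and 192 ± 7.26 CPM in DG. The Tdo2 call was lost without CA3 replicate 1 or 3 and in the fit of 48 libraries (adjusted p 0.052 to 0.0776).

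**Figure D1:**
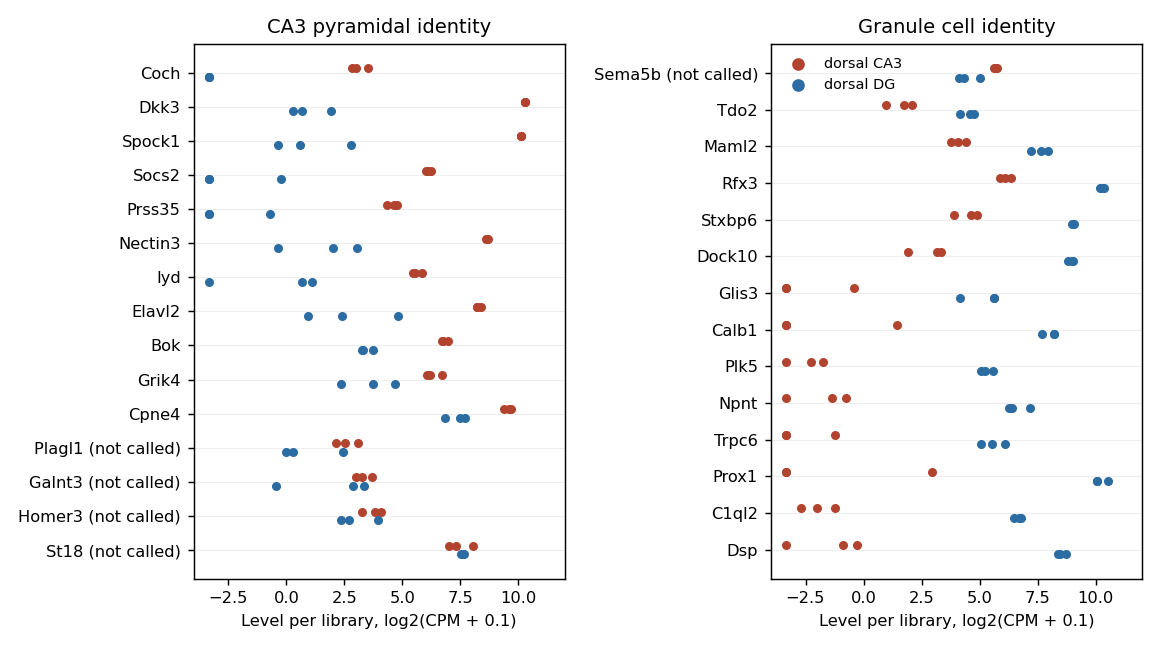
Level of members of the CA3 and granule cell identity lists in each of the 6 libraries, as log2(CPM + 0.1), with the genes sorted by how far the groups lie apart. Red points are the 3 dorsal CA3 libraries and blue points the 3 dorsal DG libraries. Points of the called genes do not overlap between groups, and 1 CA3 library carries all the Prox1 and Calb1 reads of its group.

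Markers of glial and vascular cells were summed in each library. Of 8 microglial markers none was tested, and their summed level was at most 1.52 CPM in any library. Astrocyte markers summed to 2.58 to 4.80 CPM in CA3 and 5.84 to 33.5 CPM in DG, with Aldh1l1, Gja1 and Gjb6 at 0 throughout. Slc1a3 was the called astrocyte marker, at 0.381 ± 0.130 CPM in CA3 and 8.38 ± 5.58 CPM in DG, and its call was lost without any one CA3 library, in both FPKM fits and in the fit of 48 libraries (adjusted p 0.0554 to 0.0951). Oligodendrocyte markers summed to 25.2 to 215 CPM in CA3 and 46.5 to 142 CPM in DG. CA3 replicate 1 held the highest value and is also the library with the Prox1 reads. Mbp was the called oligodendrocyte marker, at 17.9 ± 5.73 CPM in CA3 and 62.4 ± 26.5 CPM in DG (adjusted p = 0.0166), and its call was lost without CA3 replicate 2 or 3 and in both FPKM fits (adjusted p 0.0894 to 0.136). Endothelial and pericyte markers summed to 8.99 to 12.7 CPM in CA3 and 0.254 to 11.7 CPM in DG, with Cldn5 and Cdh5 at 0. Rgs5, a pericyte marker, was higher in CA3 at 9.30 ± 1.99 CPM in CA3 and 0.0423 ± 0.0733 CPM in DG. Its 1 read in DG gave a ratio of CA3 to DG of 37.2 to 8242 (95% interval for counting error). The part of these cells in the results was not tested.

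Neuronal markers of neighbouring populations gave a mixed picture. Of 12 interneuron markers, 7 had no read in CA3 and 8 none in DG, and Slc32a1, the vesicular GABA transporter, had 1 read over the 6 libraries. Lamp5 was at 34.6 ± 16.7 CPM in CA3 and 11.7 ± 0.686 CPM in DG and was not called (adjusted p = 0.0588). Sst, the somatostatin gene, was at 15.7, 5.04 and 9.73 CPM in CA3 and had no read in DG (adjusted p = 0.00669, and 0.116 in a fit of all 48 libraries). Of the mossy cell markers, Calb2 was at 1.26 CPM in CA3, and Calcrl, at 6.06 CPM in CA3, was called higher there (adjusted p = 0.0361). Ajap1, a further mossy cell marker, was higher in CA3 (log2 fold change 1.67 ± 0.36, adjusted p = 0.0208), and Sv2c higher in DG. The Ajap1 call was lost without any one CA3 library (adjusted p 0.0695 to 0.122). The Calcrl call was lost without any one CA3 library, without DG replicate 2 and with no filter (adjusted p 0.0536 to 0.153). Of 6 CA2 markers tested, Pcp4 and Cacng5 were called, both higher in DG, at 74.6 ± 11.8 CPM and 42.5 ± 16.4 CPM. Another 3 of the 6 were higher in CA3 without a call. Over all genes tested, 20.2% were called. Of 3 CA1 markers tested, Man1a was the one called, higher in CA3 with 67.7 ± 2.85 CPM there. The 2 not called were lower in CA3, and the median log2 fold change of the 3 was -1.32. With DESeq2 size factors, 1 CA1 marker was called higher in DG. Of 12 markers of immature granule cells and progenitors, 4 were tested, and 1 of these was higher in CA3 without a call. The 12 summed to 53.5 to 57.3 CPM in CA3 and to 64.3 CPM or more in each DG library. Mki67, a proliferation marker, was the called member, higher in DG at 4.24 ± 0.751 CPM in CA3 and 45.0 ± 15.8 CPM in DG (adjusted p = 0.00157, and 0.106 in the fit of 48 libraries). Top2a had reads in 1 DG library and Sox2 in none of the 6. Without DG replicate 1, 1 member of this list was called higher in CA3 and 2 higher in DG.

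Across all genes tested, 2465 (20.2%) were called at an adjusted p under 0.05 by edgeR's quasi-likelihood test, 1355 (11.1%) higher in CA3 and 1110 (9.09%) higher in DG. Of these, 779 were at least 3-fold higher in CA3 and 773 at least 3-fold higher in DG, 6.38% and 6.33% of genes tested, together 1552 (12.7%). The balance between the directions turned with the method: toward CA3 and DG there were 1677 and 1744 calls by DESeq2, and 1017 and 1028, and 978 and 1005, in the FPKM fits with pseudocounts of 0.1 and 1, as it did with the thinned reads. At 10-fold or more there were 477 genes higher in CA3 and 332 higher in DG. A further measure is overlap: every CA3 library lay above every DG library for 24.1% of genes tested, and every DG library above every CA3 library for 17.1%. Of the called genes, 192 had no read in any DG library and 19 none in any CA3 library, and the fitted fold of such genes, which depends on the prior count, enters the counts by fold. Without CA3 replicate 1, 2 or 3 the number called was 1320, 1107 and 1104, and with ventral CA3, ventral DG and CA1 libraries in a fit of 18 it was 4886.

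**Figure D2:**
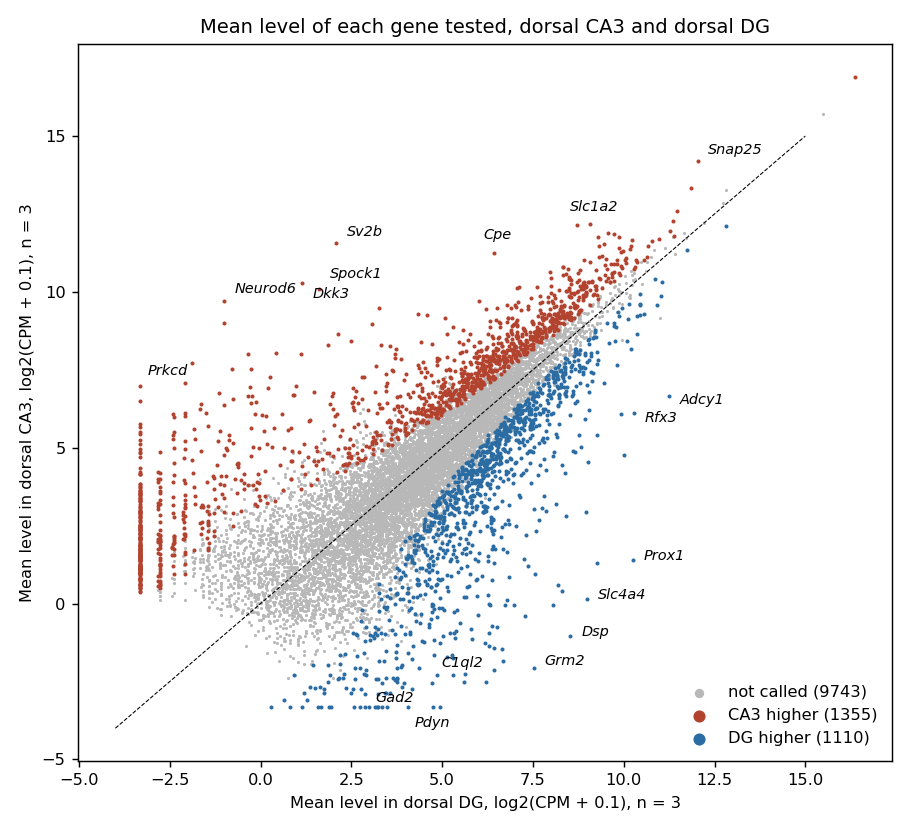
Mean level of each of the 12208 genes tested in dorsal DG (horizontal axis) and dorsal CA3 (vertical axis), as log2(CPM + 0.1) over 3 libraries each. Red points are the 1355 genes called higher in CA3, blue points the 1110 called higher in DG and grey points the genes not called, and the dashed line marks equal levels. The column of red points at the left edge holds genes with no read in DG.

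Among the 15 genes with the largest fold toward CA3, 14 had no read in any dorsal DG library. All 14 had reads in ventral DG, with means from 0.218 CPM for Prkcd to 35.5 CPM for Adamts9. Prkcd, which encodes protein kinase C delta, was at 95.3, 109 and 174 CPM in CA3, at least 314-fold higher. Cd109, a GPI-anchored surface protein, reached 90.8 ± 15.6 CPM, at least 226-fold higher, and St8sia6, a sialyltransferase, 54.4 ± 17.1 CPM, at least 135-fold higher. Ptpn14 (a tyrosine phosphatase), Cpne9 (a copine) and Nkd2 (a regulator of Wnt signalling) had means of 50.6, 45.3 and 43.1 CPM. Mndal, Adamts9, Gprin3, Car2, Samd5, Ephx1, Tbata and Gng4 completed the group without dorsal DG reads, with means of 37.5, 34.7, 31.1, 28.7, 28.6, 26.0, 20.3 and 18.7 CPM in CA3. Neurod6, a basic helix-loop-helix factor of forebrain pyramidal neurons, was at 853, 788 and 890.3 CPM in the CA3 libraries and 0.635, 0.414 and 0.137 CPM in the DG libraries (log2 fold change 10.96 ± 0.25, adjusted p = 7.49e-07). These genes fell into those shared with dorsal CA1 and those that were not: 7 of the 15 had at least 10 CPM in dorsal CA1, among them Neurod6 at 769.7 ± 44.1 CPM and Car2 at 53.5 ± 7.92 CPM, while 5 were under 1 CPM there, Prkcd at 0.0378 CPM and Cd109 at 0.723 CPM. In ventral CA3, Prkcd, Cd109, St8sia6 and Samd5 had means of only 4.41, 9.35, 4.47 and 4.32 CPM. The other genes of the 15 had means of 11.5 to 291 CPM there, with Car2, Gng4, Gprin3, Nkd2 and Tbata above their dorsal CA3 means.

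The 8 most abundant genes among those at least 4-fold higher in CA3 held 3 proteins of vesicle release. Sv2b, a glycoprotein of synaptic vesicles, was at 2894, 2951 and 3265 CPM in the CA3 libraries and 4.32, 3.72 and 4.25 CPM in the DG libraries. It had the smallest adjusted p of the named genes (log2 fold change 9.48 ± 0.08, adjusted p = 1.28e-08). Snap25, a SNARE protein of vesicle fusion, was at 18152, 18434 and 19714 CPM in the CA3 libraries and 5632, 3392 and 3550.2 CPM in the DG libraries (log2 fold change 2.11 ± 0.24, adjusted p = 0.000128). Syt1, the calcium sensor of fast release, reached 3457 ± 118 CPM in CA3 and 632 ± 36.0 CPM in DG, Chgb (chromogranin B, a dense-core vesicle granin) 4628 ± 241 CPM in CA3 and 540.0 ± 117 CPM in DG, Slc24a2 (a potassium-dependent sodium/calcium exchanger) 3726 ± 318 CPM in CA3 and 853 ± 53.1 CPM in DG, and Rasgrp1 (a Ras activator) 3784 ± 316 CPM in CA3 and 756 ± 46.5 CPM in DG. Slc1a2, the glutamate transporter GLT-1, best known from astrocytes, was at 3954, 4902 and 4690.4 CPM in the CA3 libraries and 434, 451 and 383 CPM in the DG libraries (log2 fold change 3.37 ± 0.12, adjusted p = 3.53e-06). The list of 8 astrocyte markers summed to 2.58 to 4.80 CPM in these CA3 libraries and 5.84 to 33.5 CPM in the DG libraries, 3 of the 8 were at 0 in both groups, and the part of astrocytes was not tested. Ywhah, a 14-3-3 protein, was at 2950.2 ± 417 CPM in CA3 and 698 ± 94.5 CPM in DG.

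Of the 15 genes with the largest fold toward DG, 4 had no read in CA3. Pdyn, which encodes prodynorphin, the precursor of the dynorphins of mossy fibres, was at 24.0, 31.3 and 36.9 CPM, at least 197-fold higher. Gad2 and Gad1, the GABA-synthesizing glutamate decarboxylases, were at 26.8, 22.8 and 30.5 CPM and 62.6, 79.9 and 77.4 CPM in DG, against no read and 4 reads in CA3. The list of 12 interneuron markers, Gad2 among them, summed to 31.2 to 59.4 CPM in CA3 and 35.3 to 43.6 CPM in DG, with Lamp5 at 11.7 ± 0.686 CPM, Slc32a1 at 1 read and 8 members at 0 in DG, and the part of interneurons was not tested. Grm2, a presynaptic group II metabotropic glutamate receptor, was at 0.165, 0.245 and 0 CPM in the CA3 libraries and 230.1, 193 and 126 CPM in the DG libraries (log2 fold change -10.33 ± 0.31, adjusted p = 2.9e-05). Dsp and C1ql2 were also among the 15, with log2 fold changes of -9.89 and -9.16. Slc4a4, a sodium bicarbonate cotransporter, was at 1.02 ± 0.758 CPM in CA3 and 512 ± 8.80 CPM in DG. Trpc6, Npnt, Plk5, Fam84b, Gsg1l, Tagln2 and Rph3al had means of 49.3, 100.99, 39.2, 86.6, 48.2, 16.5 and 11.1 CPM in DG and at most 0.262 CPM in CA3. Gsg1l and Tagln2 were uneven among the DG libraries (SD 46.98 and 15.06 CPM) and had means of 3.51 and 0 CPM in ventral DG. Of these 15 genes, 12 were under 1 CPM in dorsal CA1 and Fam84b reached 10 CPM there. The abundant genes at least 4-fold higher in DG were led by Adcy1, a calcium-stimulated adenylyl cyclase, at 129.99, 91.6 and 78.5 CPM in the CA3 libraries and 2605, 2443 and 2260.0 CPM in the DG libraries (log2 fold change -4.66 ± 0.22, adjusted p = 4.71e-06). Rfx3, Prox1, Nrgn (neurogranin, a calmodulin-binding protein), Fam163b, Ext2 (a heparan sulfate polymerase), Btbd3 and Sparcl1 (a matricellular protein) made up the rest, the last at 134 ± 18.032 CPM in CA3 and 698 ± 44.5 CPM in DG.

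The promoter sequence of the strongest of these genes is shown so that the regions in question can be read. In each direction the 2 genes with the smallest p among the 15 were taken that have a single start in the RefSeq table (build GRCm38.p6), with 250 bases before the start. The E-box letters CAGATG and CAGCTG, sites of the kind that NEUROD and other basic helix-loop-helix factors bind, were searched on both strands and would be in capitals. Neither occurs in any of the 4 windows. The windows are chr6:55681264-55681513 (minus strand) for Neurod6, chr1:189728018-189728267 (plus strand) for Ptpn14, chr9:106656110-106656359 (minus strand) for Grm2 and chr1:120340332-120340581 (plus strand) for C1ql2.
Neurod6: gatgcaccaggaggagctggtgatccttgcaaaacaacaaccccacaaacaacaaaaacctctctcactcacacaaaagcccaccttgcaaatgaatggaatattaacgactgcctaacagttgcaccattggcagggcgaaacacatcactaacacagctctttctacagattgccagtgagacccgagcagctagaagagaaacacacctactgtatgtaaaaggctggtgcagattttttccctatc
Ptpn14: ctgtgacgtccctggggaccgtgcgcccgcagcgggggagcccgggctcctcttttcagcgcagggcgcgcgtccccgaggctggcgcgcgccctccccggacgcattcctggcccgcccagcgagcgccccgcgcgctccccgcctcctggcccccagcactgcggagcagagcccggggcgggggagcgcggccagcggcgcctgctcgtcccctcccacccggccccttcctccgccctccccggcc
Grm2: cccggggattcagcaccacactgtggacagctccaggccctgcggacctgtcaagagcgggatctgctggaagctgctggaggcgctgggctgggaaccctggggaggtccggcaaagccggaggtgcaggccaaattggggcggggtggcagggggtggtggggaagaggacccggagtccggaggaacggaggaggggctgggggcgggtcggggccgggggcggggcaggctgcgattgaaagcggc
C1ql2: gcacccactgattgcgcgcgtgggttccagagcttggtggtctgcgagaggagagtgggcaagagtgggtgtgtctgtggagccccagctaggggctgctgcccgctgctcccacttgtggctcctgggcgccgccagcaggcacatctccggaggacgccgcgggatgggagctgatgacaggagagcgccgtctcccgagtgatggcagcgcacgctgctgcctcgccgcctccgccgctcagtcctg
Over windows of the same length, CAGATG was present in 14.4% of all 32851 promoters in the table, in 9.56% of those of the genes tested, in 11.4% of those of genes at least 3-fold higher in CA3 and in 10.2% of those at least 3-fold higher in DG. The shares for CAGCTG were 13%, 11.7%, 16.2% and 13.1%.

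Both lists of mossy fibre synapse genes, presynaptic and postsynaptic, held members called in each direction. Of the presynaptic list's 22 members tested, 7 were called higher in CA3 and 9 in DG, with a median log2 fold change of -0.23, against a background of 11.1% and 9.09% called in the 2 directions and a median of -0.07 over all genes tested. The secreted synaptic organizers C1ql2 and C1ql3, which bridge mossy fibre boutons to kainate receptors and adhesion proteins, were at 0.329, 0.147 and 0.0526 CPM in the CA3 libraries and 104, 111 and 89.2 CPM in the DG libraries and at 2.47, 0.147 and 1.05 CPM in the CA3 libraries and 301, 316 and 333 CPM in the DG libraries. Each DG library stood far above each CA3 library for both (adjusted p = 2.9e-05 and 0.000155). Kirrel3, an adhesion protein, Gpc4, a glypican, and Penk, the enkephalin precursor, were higher in DG by log2 fold changes of -6.97, -5.26 and -3.55. Slc30a3, the zinc transporter that loads mossy fibre vesicles, was at 40.0, 31.7 and 37.0 CPM in the CA3 libraries and 139, 68.1 and 210.0 CPM in the DG libraries (log2 fold change -1.99 ± 0.48, adjusted p = 0.00842), and Syt7, the sensor of facilitation, was modestly higher in DG (log2 fold change -0.69, adjusted p = 0.0114). Other members were higher in CA3: Nrxn3, Rims1 and Syn2 by log2 fold changes of 2.54, 1.93 and 1.79. Slc17a7, the vesicular glutamate transporter VGLUT1, was at 1283 ± 171 CPM in CA3 and 787 ± 219 CPM in DG (adjusted p = 0.0466), and Epha4, an Eph receptor, at 1503 ± 73.0 CPM in CA3 and 945 ± 154 CPM in DG. Bdnf, Synpr and Cdh9 were not called, Bdnf at 179.8 ± 5.22 CPM in CA3 and 117 ± 15.6 CPM in DG. The Syt7 call was lost without CA3 replicate 1 or 3 and on log2(FPKM + 1) (adjusted p 0.0504 to 0.0701). The Penk call was lost without CA3 replicate 2 or 3 (adjusted p 0.0703 to 0.071). The Slc17a7 call was lost without any one CA3 library, without DG replicate 2 or 3, in both FPKM fits, in the fit of 48 libraries, with thinned CA3 reads and with DESeq2 size factors (adjusted p 0.0528 to 0.154). The Syt12 call was lost without any one CA3 library and without DG replicate 1 or 3 (adjusted p 0.0508 to 0.148). The Epha4 call was lost without CA3 replicate 2 or 3 and in both FPKM fits (adjusted p 0.0544 to 0.0814). For the list, without CA3 replicate 2 and 3, in turn, the counts toward CA3 and DG were 4 and 8, and 4 and 7.

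Of the postsynaptic list's 19 members tested, 6 were called higher in CA3 and 4 in DG, with a median log2 fold change of 0.12, where 11.1% and 9.09% of all genes tested were called in these directions. Nectin3 and Gpr158, a receptor at contacts of mossy fibres with CA3 cells, were higher in CA3, Gpr158 at 655, 809 and 734 CPM in the CA3 libraries and 151, 118 and 124 CPM in the DG libraries (log2 fold change 2.43 ± 0.14, adjusted p = 4.53e-05). Ntrk2, the BDNF receptor TrkB, was higher by 0.92 (adjusted p = 0.00492). The members higher in DG were Grik3, Lrrtm4, Efnb3 and Tenm3. Lrrtm4, a heparan sulfate-binding organizer of excitatory synapses, was at 11.7, 7.44 and 4.95 CPM in the CA3 libraries and 185, 188 and 183 CPM in the DG libraries (log2 fold change -4.58 ± 0.34, adjusted p = 7.33e-05), and the ephrin Efnb3 at 7.86 ± 5.66 CPM in CA3 and 73.1 ± 11.8 CPM in DG. Grm5, Islr2, Adgrl3 and Ptprd had levels in both cell types and were not called, Grm5 at 405 ± 53.2 CPM in CA3 and 383 ± 11.5 CPM in DG. The Grik4 call was lost without any one CA3 library (adjusted p 0.0524 to 0.0815). The Tenm3 call was lost without any one CA3 library and in both FPKM fits (adjusted p 0.0608 to 0.117). The Ntrk2 call was lost in both FPKM fits (adjusted p 0.229 to 0.231).

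**Figure D3:**
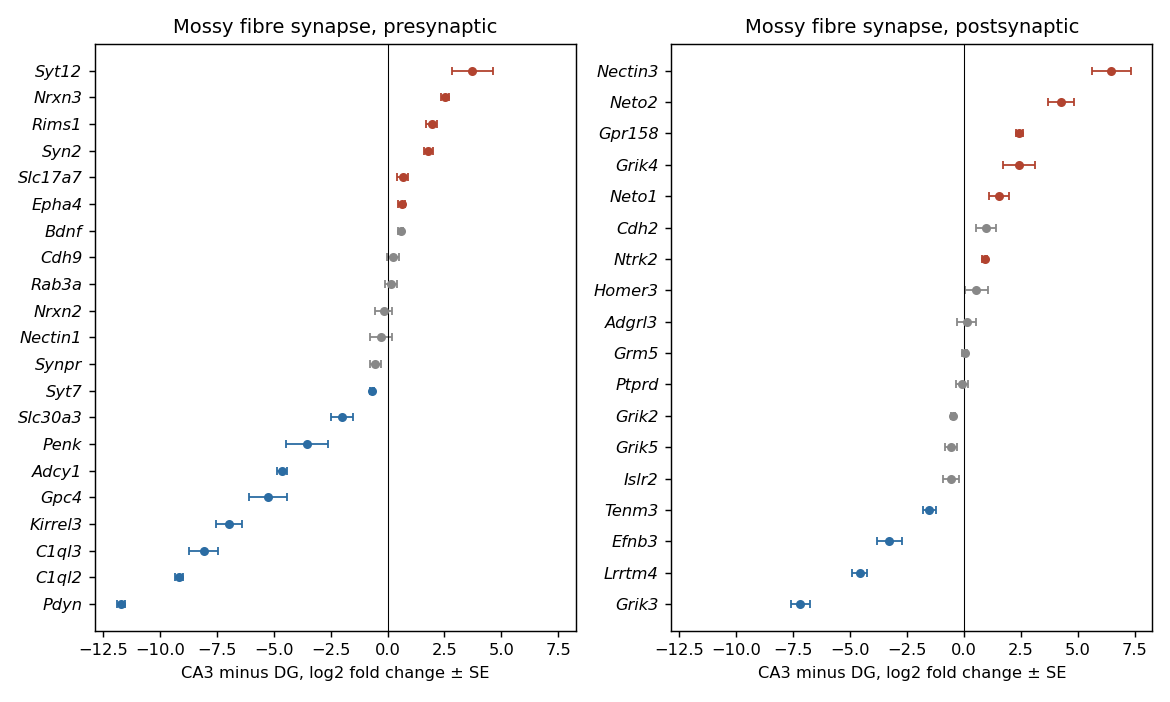
Log2 fold change, dorsal CA3 minus dorsal DG, of tested members of the presynaptic (left) and postsynaptic (right) mossy fibre lists, with bars of ± 1 SE. The SE was taken from log2(CPM + 0.5) and can be too small where levels are near 0. Red points are genes called higher in CA3, blue points genes called higher in DG and grey points genes not called. The presynaptic list runs from Pdyn, whose fitted value depends on the prior count because CA3 had no read, to Syt12 at 3.72, and the postsynaptic list from Grik3 at -7.19 to Nectin3 at 6.48.

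Glutamate receptor genes showed subunit-by-subunit differences. Among kainate receptor genes, which carry a slow component of the mossy fibre response, Grik4 was at 105, 72.6 and 65.7 CPM in the CA3 libraries and 13.3, 4.97 and 25.7 CPM in the DG libraries (log2 fold change 2.42 ± 0.69, adjusted p = 0.0166) and Grik3 at 0.713, 1.03 and 0.895 CPM in the CA3 libraries and 131, 67.0 and 178 CPM in the DG libraries (log2 fold change -7.19 ± 0.42, adjusted p = 4.53e-05). Each of these 2 subunits was thus higher in a different cell type, and neither showed overlap between groups. The shared subunits Grik2 and Grik5 were not called, with Grik2 at 185 ± 21.1 CPM in CA3 and 249.7 ± 11.953 CPM in DG. The auxiliary subunits Neto1 and Neto2 were both higher in CA3, Neto2 at 178, 296 and 291 CPM in the CA3 libraries and 8.26, 7.31 and 22.8 CPM in the DG libraries (log2 fold change 4.27 ± 0.55, adjusted p = 0.000493). In the AMPA list, 4 of 18 members tested were higher in CA3 and 8 in DG, where 11.1% and 9.09% of all genes tested were called in these directions, and without CA3 replicate 2 and 3, in turn, the counts toward CA3 and DG were 2 and 6, and 2 and 6. The pore subunits Gria2 and Gria3 were slightly higher in CA3 (log2 fold changes 0.44 and 0.79), and Gria1 was not called, at 887 ± 11.8 CPM in CA3 and 812 ± 53.8 CPM in DG (adjusted p = 0.711). The Gria2 call was lost without CA3 replicate 2 or 3 and in both FPKM fits (adjusted p 0.0568 to 0.089). The Gria3 call was lost without CA3 replicate 2 or 3 and in both FPKM fits (adjusted p 0.0755 to 0.446). The auxiliary proteins made up the rest of the calls. Cnih3, a cornichon, was at 4.47 ± 1.53 CPM in CA3 and 158 ± 23.7 CPM in DG, and Shisa9, also known as CKAMP44, at 0.978 ± 0.723 CPM in CA3 and 111 ± 13.8 CPM in DG, both higher in DG. Shisa6 and Cacng2, the TARP stargazin, were higher in CA3 by 1.92 and 2.43. Of the NMDA receptor genes, 1 of 5 tested was called, where 20.2% of all genes tested were called. It was Grin2a, at 578 ± 44.0 CPM in CA3 and 399 ± 30.3 CPM in DG, and this call was lost without any one CA3 library, without DG replicate 2, in both FPKM fits, with thinned CA3 reads and with DESeq2 size factors (adjusted p 0.0501 to 0.146). With those libraries left out, none of the 5 was called. Among metabotropic receptors, Grm2 and Grm3 were both higher in DG, Grm3 at 0.405 ± 0.283 CPM in CA3 and 17.4 ± 0.309 CPM in DG, and Grm5 and Grm7 were not called.

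Of the 12 GABA-A subunit genes tested, 4 were higher in CA3 and 2 in DG, against 11.1% and 9.09% of all genes tested. For these genes, without CA3 replicate 1, 2 and 3, or DG replicate 2 and 3, in turn, the counts toward CA3 and DG were 2 and 1, 1 and 1, 1 and 1, 2 and 2, and 2 and 2. Gabra5, a subunit of extrasynaptic receptors of pyramidal cells, was at 623 ± 43.8 CPM in CA3 and 278 ± 61.6 CPM in DG (log2 fold change 1.11 ± 0.19, adjusted p = 0.00356). Gabrd, the delta subunit of tonic inhibition in granule cells, was at 0.0548, 0.0979 and 0 CPM in the CA3 libraries and 17.3, 9.10 and 27.0 CPM in the DG libraries, and its 3 reads in CA3 gave a ratio of DG to CA3 of 116 to 1667 (95% interval for counting error). None of 3 GABA-B genes tested by edgeR was called, 1 had an unadjusted p under 0.05, and DESeq2 called 0. In the fit of 18 libraries, 2 members of this list were called higher in CA3, and in ventral cells 1 was.

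Of the voltage-gated potassium channel list's 40 members tested, 7 were called higher in CA3 and 8 in DG, with a median log2 fold change of -0.16, where 11.1% and 9.09% of all genes tested were called in these directions. For this list, without CA3 replicate 1, 2 and 3, in turn, the counts toward CA3 and DG were 5 and 5, 4 and 3, and 4 and 3. Kcnq5, an M-current subunit, was at 306, 242 and 220.1 CPM in the CA3 libraries and 0.254, 1.52 and 0.274 CPM in the DG libraries (log2 fold change 8.50 ± 0.49, adjusted p = 3.54e-05). Of the Kv3 genes, Kcnc2 was higher in CA3 at 318 ± 51.8 CPM in CA3 and 9.94 ± 7.66 CPM in DG, while Kcnc4 was higher in DG at 0.499 ± 0.578 CPM in CA3 and 91.2 ± 38.6 CPM in DG. Kcnn3, an SK channel of the afterhyperpolarization, was higher in DG (log2 fold change -5.23). In the sodium channel list, 8 of 14 members tested were higher in CA3 and 1 in DG, with a median of 0.98. For sodium channels, without CA3 replicate 1, 2 and 3, in turn, the counts toward CA3 and DG were 5 and 1, 4 and 1, and 3 and 1. Scn2a and Scn8a, the main axonal subunits, were higher in CA3 by 0.97 and 0.69, and Scn3a was the member higher in DG (log2 fold change -1.56 ± 0.14, adjusted p = 0.00139). The Scn8a call was lost without CA3 replicate 2 or 3 and in both FPKM fits (adjusted p 0.0542 to 0.0762). Of calcium channel genes, 5 of 14 were higher in CA3 and 2 in DG, and without CA3 replicate 1, 2 and 3, or DG replicate 1, in turn, the counts toward CA3 and DG were 3 and 1, 3 and 1, 3 and 1, and 6 and 1. Cacna1h, a T-type channel, was at 36.4, 27.6 and 22.6 CPM in the CA3 libraries and 272, 345 and 188 CPM in the DG libraries (log2 fold change -3.27 ± 0.32, adjusted p = 0.000169). All 3 DG libraries stood above all CA3 libraries for this channel.

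Peptide and receptor genes were called in both directions. Of 16 neuropeptide and processing genes tested, 7 were higher in CA3 and 4 in DG, where 11.1% and 9.09% of all genes tested were called in these directions. Cck, the cholecystokinin gene, was at 804 ± 73.4 CPM in CA3 and 205 ± 114 CPM in DG, and Cpe, the carboxypeptidase that matures peptides, at 2083, 2622 and 2538 CPM in the CA3 libraries and 115, 104 and 38.7 CPM in the DG libraries (log2 fold change 4.76 ± 0.51, adjusted p = 8.89e-05). Scg2, secretogranin II, went the other way at 88.5 ± 19.8 CPM in CA3 and 306 ± 78.1 CPM in DG. Among receptors, Npy2r was higher in CA3 and Npy1r in DG, at 284 ± 30.7 CPM in CA3 and 89.7 ± 50.0 CPM in DG and at 8.81 ± 4.66 CPM in CA3 and 114 ± 55.2 CPM in DG. The somatostatin receptors paired in the same manner, with Sstr3 at 49.3 ± 14.1 CPM in CA3 and 1.69 ± 1.37 CPM in DG and Sstr2 at 0.805 ± 0.372 CPM in CA3 and 31.6 ± 22.9 CPM in DG. Adcyap1r1, the PACAP receptor, was at 6.86, 6.61 and 9.52 CPM in the CA3 libraries and 227, 263 and 205 CPM in the DG libraries (log2 fold change -4.96 ± 0.19, adjusted p = 2.2e-05), higher in DG. Htr2c and Chrm3, receptors for serotonin and acetylcholine, were higher in CA3 by 6.09 and 7.96. Cckbr, a cholecystokinin receptor, was at 17.956 ± 3.54 CPM in CA3 and 0.0457 ± 0.0792 CPM in DG, and its 1 read in DG gave a ratio of CA3 to DG of 72.5 to 16008 (95% interval for counting error). Oxtr, the oxytocin receptor, had no read in DG and 5.68 ± 2.06 CPM in CA3, at least 14.1-fold higher, and Oprd1, the delta opioid receptor, no read in CA3 and 7.76 ± 5.82 CPM in DG, at least 49.6-fold higher. Drd1, a dopamine receptor, was higher in DG at 1.23 ± 1.34 CPM in CA3 and 28.1 ± 19.9 CPM in DG. The Npy2r call was lost without any one CA3 library and in both FPKM fits (adjusted p 0.0724 to 0.0989). The Oxtr call was lost without CA3 replicate 1 or 3 and on log2(FPKM + 1) (adjusted p 0.0524 to 0.1). The Drd1 call was lost without CA3 replicate 1 or 3, without DG replicate 2 and in the fit of 48 libraries (adjusted p 0.06 to 0.12). The Oprd1 call was lost on log2(FPKM + 1) (adjusted p = 0.0735).

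Guidance and adhesion genes were called in both directions. Of 49 synaptic organizers and immunoglobulin adhesion genes tested, 20 were higher in CA3 and 12 in DG, and of 15 Slit, Robo, netrin and Unc5 genes, 5 and 4, where 11.1% and 9.09% of all genes tested were called in these directions. With any one library left out, the first list had 14 to 23 higher in CA3 and 9 to 13 higher in DG. Robo1, a Slit receptor, was at 379, 425 and 399 CPM in the CA3 libraries and 32.012, 41.7 and 31.2 CPM in the DG libraries (log2 fold change 3.47 ± 0.14, adjusted p = 2.65e-05), whereas Robo3 was higher in DG at 10.1 ± 3.89 CPM in CA3 and 78.8 ± 24.2 CPM in DG. Dcc and Unc5c, netrin receptors, and Slit2, a Robo ligand, were higher in CA3 by 3.19, 2.69 and 2.88, and Ntng1, netrin-G1, was higher in DG (log2 fold change -4.004 ± 0.77, adjusted p = 0.00476). Among 26 semaphorin, plexin and neuropilin genes tested, 6 were called higher in CA3 and 6 in DG. With any one library left out, the counts were 4 to 8 and 2 to 5. Sema3e and Plxna1, a semaphorin and a plexin, were higher in CA3 at 287 ± 17.3 CPM in CA3 and 13.2 ± 10.4 CPM in DG and at 236 ± 50.0 CPM in CA3 and 12.8 ± 3.27 CPM in DG. Sema6d was higher in DG at 53.9 ± 3.48 CPM in CA3 and 246.5 ± 96.4 CPM in DG. The teneurins, trans-synaptic adhesion proteins, split into Tenm4 and Tenm2 higher in CA3 and Tenm1 and Tenm3 higher in DG, with Tenm4 at 153 ± 41.6 CPM in CA3 and 1.09 ± 0.962 CPM in DG and Tenm1 at 8.25 ± 3.10 CPM in CA3 and 215 ± 38.6 CPM in DG. In the contactin-associated family, Cntnap2 was higher in CA3 by 5.92, Cntnap5c was at 67.6 ± 4.94 CPM in CA3 with 2 reads in DG (ratio 210.0 to 6270.4, 95% interval for counting error), and Cntnap5a and Cntnap5b in DG by -4.01 and -2.65. Epha6 was higher in CA3 and Pcdh17, a protocadherin, in DG (log2 fold changes 2.36 and -1.80). In the matrix list, Hapln4, a link protein of perineuronal nets, was at 276, 231 and 282 CPM in the CA3 libraries and 0.254, 3.03 and 0.412 CPM in the DG libraries (log2 fold change 7.69 ± 0.71, adjusted p = 0.000164). All 3 CA3 libraries stood above the DG libraries. The Slit2 call was lost in both FPKM fits (adjusted p 0.0542 to 0.0558). The Tenm2 call was lost in both FPKM fits (adjusted p 0.098 to 0.0988). The Cntnap5a call was lost without CA3 replicate 1 or 2 and without DG replicate 1 (adjusted p 0.0602 to 0.0975).

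Transcription factor genes were called more often toward DG, with 12 of 64 tested higher in CA3 and 20 in DG, against 11.1% and 9.09% of all genes tested. For this list, without CA3 replicate 1, 2 and 3, in turn, the counts toward CA3 and DG were 10 and 13, 7 and 15, and 7 and 12. Mef2c, a MADS-box factor, was at 38.0, 60.5 and 27.2 CPM in the CA3 libraries and 639.9, 649.8 and 538 CPM in the DG libraries (log2 fold change -3.91 ± 0.34, adjusted p = 6.24e-05), while its relative Mef2a was higher in CA3 at 599 ± 92.0 CPM in CA3 and 198 ± 13.8 CPM in DG. Bcl11b, also called Ctip2, and the nuclear factors Nfia and Nfix were higher in DG by -3.75, -1.93 and -1.81. Neurod2 was higher in DG at 171 ± 31.6 CPM in CA3 and 551 ± 168 CPM in DG, against the Neurod6 values above. Trps1, Sox5, Fezf2 and Lmo4 were higher in CA3 by 5.87, 6.48, 4.03 and 2.00.

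Immediate-early genes, transcribed within minutes of activity or stress, were called more often toward DG. Of 24 members tested, 3 were called higher in CA3 and 13 in DG, with a median log2 fold change of -1.84, where 11.1% and 9.09% of all genes tested were called in these directions. For this list, without CA3 replicate 1, 2 and 3, or DG replicate 2, in turn, the counts toward CA3 and DG were 1 and 9, 1 and 9, 1 and 8, and 1 and 12. Fos was at 2.36, 7.64 and 7.84 CPM in the CA3 libraries and 99.8, 105 and 36.2 CPM in the DG libraries and Fosb at 3.35, 4.60 and 1.74 CPM in the CA3 libraries and 114, 134 and 59.0 CPM in the DG libraries. Both genes were above all CA3 libraries in each DG library (adjusted p = 0.00317 and 0.000283). Jun was at 24.8 ± 7.30 CPM in CA3 and 224 ± 31.9 CPM in DG and Egr1 at 164 ± 15.4 CPM in CA3 and 467 ± 175 CPM in DG. Ier2, Nr4a3 and Ptgs2, the inducible cyclooxygenase, went the other way, Ier2 at 1.42 ± 0.0893 CPM in CA3 and 0.0460 ± 0.0796 CPM in DG with a single DG read, Nr4a3 at 322 ± 23.8 CPM in CA3 and 47.1 ± 54.4 CPM in DG and Ptgs2 at 246 ± 8.6001 CPM in CA3 and 74.5 ± 17.3 CPM in DG. The Nr4a3 call was lost without any one CA3 library, without DG replicate 2, in both FPKM fits and with no filter (adjusted p 0.0843 to 0.21). The Ier2 call was lost without any one DG library, in both FPKM fits, by DESeq2 and with no filter (adjusted p 0.0514 to 0.181). Whether handling of the slices contributed to these differences was not tested. Among growth factor genes, Igfbp5, an IGF-binding protein, was at 1.40 ± 1.45 CPM in CA3 and 291 ± 32.5 CPM in DG and Ntf3, neurotrophin 3, at 0.138 ± 0.0753 CPM in CA3 and 20.5 ± 11.3 CPM in DG, both higher in DG, while Fgf10 was higher in CA3 at 49.9 ± 3.89 CPM in CA3 and 0.736 ± 1.27 CPM in DG.

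Second messenger families held members called in each direction. Protein kinase C genes Prkca and Prkcb were higher in CA3 together with Prkcd, Prkca at 1646, 1656 and 1474 CPM in the CA3 libraries and 301, 229.9 and 223 CPM in the DG libraries (log2 fold change 2.61 ± 0.15, adjusted p = 2.65e-05). Of the calmodulin-stimulated phosphodiesterases, Pde1a was at 519.5, 689 and 625 CPM in the CA3 libraries and 19.8, 29.4 and 22.9 CPM in the DG libraries and Pde1b at 8.28, 5.73 and 3.32 CPM in the CA3 libraries and 111, 106 and 104 CPM in the DG libraries. The groups did not overlap for either gene, and the 2 genes differed in opposite directions (adjusted p = 1.02e-05 and 0.000194). The calcium/calmodulin kinases Camk4 and Camk1d were higher in CA3 by 2.50 and 2.40, Camk2d was higher in CA3 at 58.2 ± 13.3 CPM in CA3 and 2.41 ± 1.47 CPM in DG, and Camk2b in DG at 925 ± 100.77 CPM in CA3 and 2077 ± 83.5 CPM in DG. The calcium release channels Itpr1 and Ryr1 were higher in DG and Ryr3 in CA3, with log2 fold changes of -0.99, -4.72 and 1.30. The Ryr3 call was lost without any one CA3 library, in both FPKM fits and in the fit of 48 libraries (adjusted p 0.0552 to 0.726). The Itpr1 call was lost in both FPKM fits (adjusted p 0.0676 to 0.0701). The Camk2d call was lost on log2(FPKM + 0.1) (adjusted p = 0.0687).

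Release genes were called more often toward CA3, with 18 of 37 tested higher in CA3 and 8 in DG, against 11.1% and 9.09% of all genes tested, and a median of 0.75. Beside the genes above, Pclo, the active zone protein Piccolo, was at 3489 ± 382 CPM in CA3 and 943 ± 121 CPM in DG and Rab3c, a vesicle GTPase, at 758 ± 101.39 CPM in CA3 and 109.5 ± 20.9 CPM in DG. Toward DG, Sv2c was at 4.77, 0.0490 and 0 CPM in the CA3 libraries and 82.4, 40.3 and 124 CPM in the DG libraries (log2 fold change -5.75 ± 1.21, adjusted p = 0.0259), opposite to Sv2b, Doc2b was at 0.713, 0.979 and 0.263 CPM in the CA3 libraries and 161, 99.0 and 206 CPM in the DG libraries and Syt17 at 1.69 ± 1.22 CPM in CA3 and 115 ± 4.21 CPM in DG. The Sv2c call was lost without CA3 replicate 2 or 3, without DG replicate 3 and with no filter (adjusted p 0.0577 to 0.191). For this list, without CA3 replicate 1, 2 and 3, in turn, the counts toward CA3 and DG were 14 and 5, 14 and 5, and 13 and 4.

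Glycolysis genes were higher in CA3 where called. Of 21 members tested, 9 were called higher in CA3 and 0 in DG, with a median log2 fold change of 0.82, where 11.1% and 9.09% of all genes tested were called in these directions. For this list, without CA3 replicate 1, 2 and 3, in turn, the counts toward CA3 and DG were 4 and 0, 4 and 0, and 3 and 0. Pfkp, a phosphofructokinase, was at 213 ± 11.8 CPM in CA3 and 47.1 ± 10.8 CPM in DG and Pgk1, phosphoglycerate kinase, at 342 ± 21.9 CPM in CA3 and 109.9 ± 38.5 CPM in DG. Gapdh was at 1572 ± 237 CPM in CA3 and 1241 ± 43.9 CPM in DG and was not called. Of 78 nuclear genes of oxidative phosphorylation, 3 were higher in CA3 and 6 in DG, 11.5% against 20.2% of all genes tested, with a median of -0.49. Cox6a1, a subunit of cytochrome oxidase, was at 116, 96.9 and 106 CPM in the CA3 libraries and 394, 240.0 and 256 CPM in the DG libraries (log2 fold change -1.53 ± 0.24, adjusted p = 0.00234). Ndufb8 and Atp5g1 were also higher in DG by -2.48 and -0.95, calls that were lost for Ndufb8 without any one CA3 library (adjusted p 0.0549 to 0.0733) and Atp5g1 without CA3 replicate 2 or 3 (adjusted p 0.056 to 0.0629). Toward CA3, Atp5a1 was at 638 ± 25.7 CPM in CA3 and 348 ± 32.6 CPM in DG (log2 fold change 0.83, adjusted p = 0.00416). In ventral cells the same list had 49 members higher in CA3 and none higher in DG, and for 25 members the dorsal and ventral differences were themselves called different. In dorsal cells, without CA3 replicate 1, 2 and 3, or DG replicate 2, in turn, the counts toward CA3 and DG were 1 and 3, 1 and 1, 1 and 2, and 3 and 11. In the fit of 18 libraries, which called 4886 genes in all, they were 4 and 22.

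**Figure D4:**
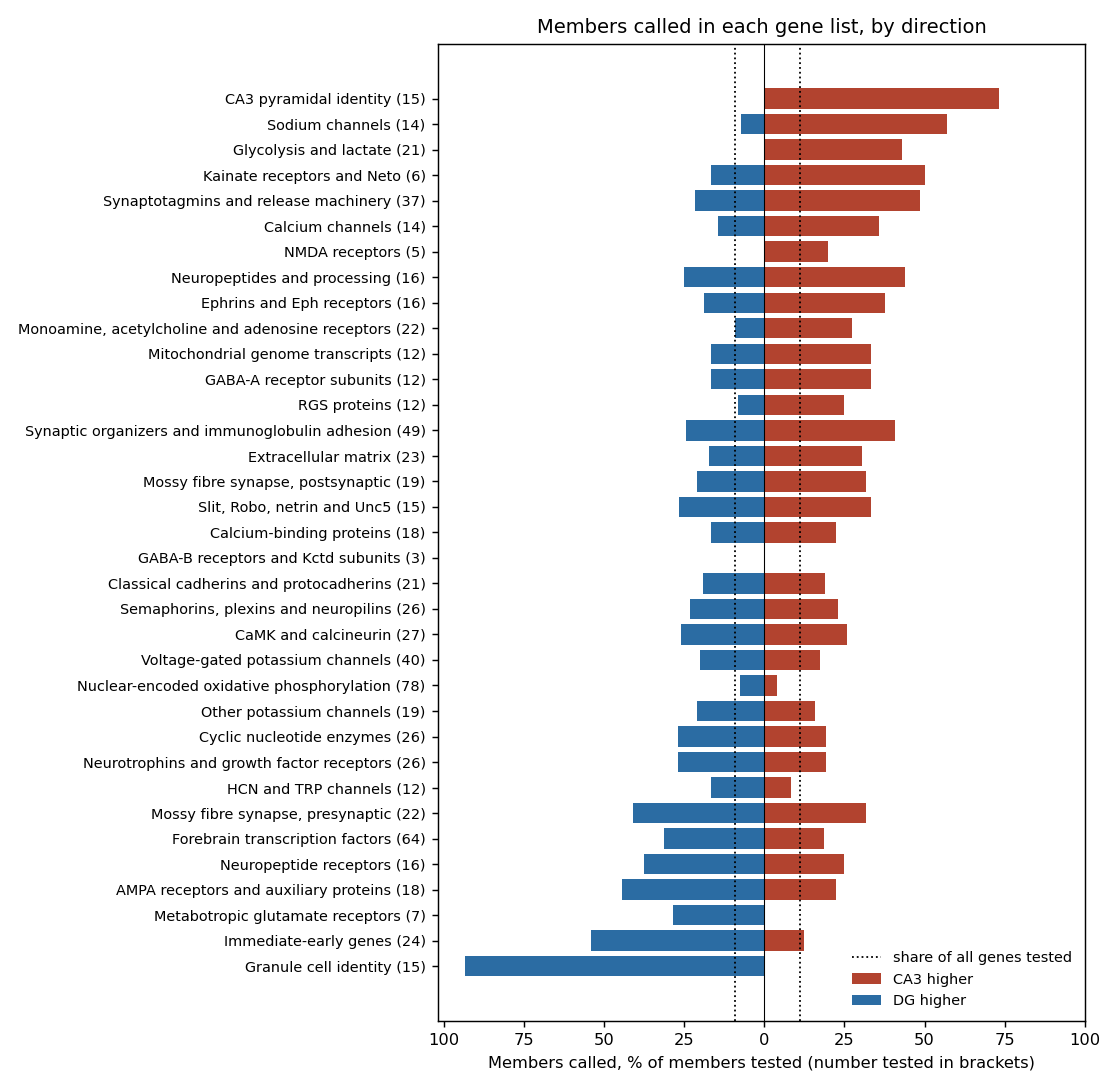
Share of the tested members of each gene list called higher in dorsal CA3 (red, to the right) and higher in dorsal DG (blue, to the left), in percent, with the number tested in brackets. Dotted lines mark the shares over all genes tested, 11.1% toward CA3 and 9.09% toward DG. Granule cell identity genes reach 14 of 15 toward DG, CA3 identity genes 11 of 15 toward CA3, and glycolysis genes 9 of 21 toward CA3 with none toward DG.

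The ventral CA3 and ventral DG libraries share none of their libraries with the dorsal pair and gave 4349 called genes of 13882 tested (31.3%). Of the 2465 dorsal calls, 2383 were tested in ventral cells, and 2064 of these (86.6%) had the same direction. The share with the same direction among all 12006 genes tested in both pairs was not computed. Called the same way in both were 1397 genes, 56.7% of the dorsal calls and 32.1% of the ventral calls, 844 of them higher in CA3 and 553 higher in DG. Another 60 were called in opposite directions. Without dorsal CA3 replicate 1, 2 or 3 the shared number was 899, 799 and 800. Sv2b, Neurod6, Dkk3 and Kcnq5 were higher in CA3 of ventral cells as well (log2 fold changes 6.798, 6.24, 5.27 and 6.79), and Prox1, Dsp, Adcy1 and Gad1 higher in DG (-11.15, -12.11, -2.94 and -8.31). Ventral DG libraries held 15.7, 14.8 and 16.5 M gene reads, more than the dorsal DG libraries, and the spread was larger in the dorsal fit, with a biological coefficient of variation of 0.603 against 0.400. Ventral CA3 libraries held 25.2, 25.4 and 30.9 M. Reads outside annotated genes made up 21.8% to 24.0% in ventral CA3 and 41.1% to 46.7% in ventral DG. Spike-in reads made up 0.372% to 0.473% and 0.969% to 1.33%. The part of these group differences in the shared calls was not tested.

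The test of the difference between the dorsal and the ventral contrast called 1022 of 14773 genes (6.92%), 688 of them among the dorsal calls. Ano3, a member of the anoctamin family, was at 698, 935 and 1032 CPM in the CA3 libraries and 269.7, 264 and 288 CPM in the DG libraries, and at 171, 155 and 200.1 CPM in ventral CA3 and 689.9, 791 and 701 CPM in ventral DG. It was higher in CA3 dorsally and higher in DG ventrally (log2 fold changes 1.65 and -2.08). Nrgn was higher in DG dorsally and in CA3 ventrally (-2.06 and 1.55), and Iyd, one of the CA3 identity genes, was higher in CA3 dorsally and in DG ventrally (5.32 and -3.89). Tnfaip8l3 was at 462, 531 and 528 CPM in the CA3 libraries and 0.508, 0.552 and 0.137 CPM in the DG libraries, and at 341, 322 and 810.0 CPM in ventral CA3 and 146, 111 and 91.5 CPM in ventral DG. The low values were those of dorsal DG. Adamts9, a metalloprotease, had 34.7, 30.8 and 38.5 CPM in dorsal CA3 and no read in dorsal DG, and was at 26.2, 26.4 and 28.0 CPM in ventral CA3 and 34.8, 36.4 and 35.4 CPM in ventral DG. Slc1a2 was at 888, 787 and 1168 CPM in ventral CA3 and 641, 749 and 671 CPM in ventral DG, so that the dorsal CA3 libraries were the ones that stood apart. Doc2b, a calcium-binding protein of release, was at 53.8, 47.7 and 22.9 CPM in ventral CA3 and 47.8, 48.4 and 36.2 CPM in ventral DG, against the dorsal values above. The count of 1022 ranged from 438, without ventral CA3 replicate 2, to 1589, without dorsal DG replicate 3, and the libraries whose omission moved it by over 1.5 times are given with the processing.

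**Figure D5:**
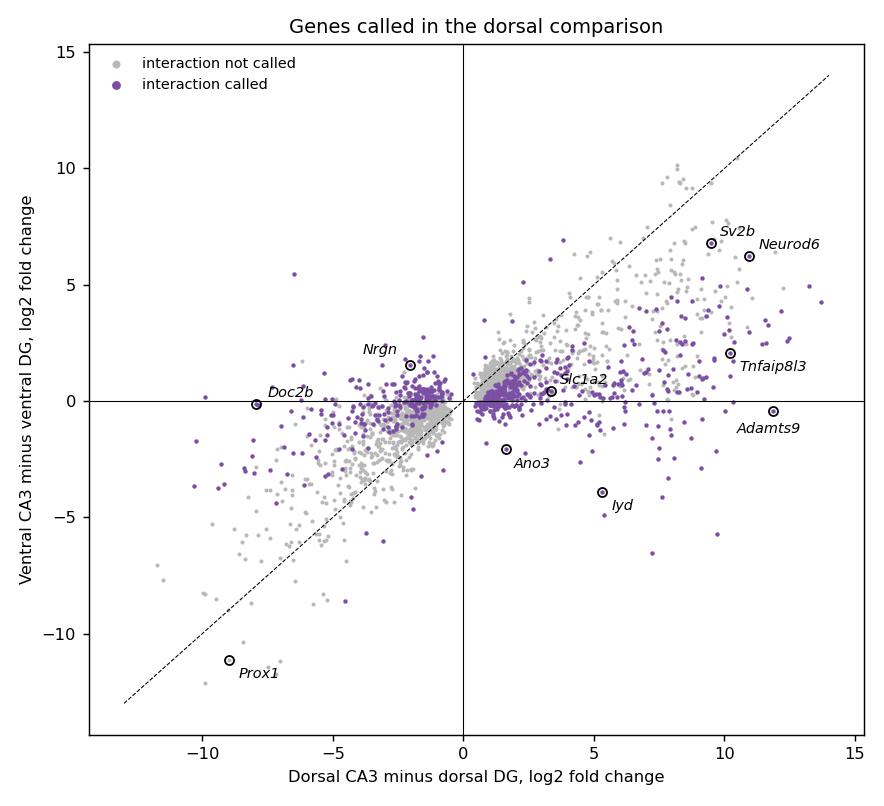
Log2 fold change, CA3 minus DG, of the 2383 genes called in the dorsal comparison and tested in ventral cells, in dorsal (horizontal axis) and ventral (vertical axis) cells. Purple points are genes whose dorsal and ventral differences were called different, grey points the rest, circles mark genes named in the text and the dashed line marks equal differences. Sv2b and Neurod6 lie far out in the upper right, Prox1 in the lower left, and Ano3, Iyd and Nrgn in the quadrants of opposite sign.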

How the data were processed

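RNA of hand-sorted neurons was amplified with Ovation RNA-seq v2, with ERCC spike-ins added, per the labels' protocols. The authors deposited whole-number counts per Ensembl gene, and a Cuffdiff table of FPKM values scaled by the authors. Tools named per the submitters' processing notes are HTSeq, DESeq2, Cuffdiff 2.1.1 and TopHat2 2.0.6, with mm9 and NCBIM37 as builds. Strand of counting is not given in the sources used here, so overlapping and antisense genes and near-identical paralogs are uncertain. Count columns show a group but not a GEO sample, and replicates are numbered as in that table.

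Of 37620 gene rows, 32897 had a name in an annotation of another build, and the rest held at most 0.765% of reads. Spike-in (92) and summary (5) rows stayed out of library sizes. Replicates differed beyond sampling noise (chi-square per degree of freedom of 28.1 or more). Genes passing filterByExpr were fitted with edgeR 4.0.16 in R 4.3.3 (TMM, robust quasi-likelihood F test, Benjamini-Hochberg adjustment, called under 0.05), on the 6 dorsal libraries, the 6 ventral ones, or all 12 for the interaction. Levels are CPM with TMM over 48 libraries. A floor of 3 reads per library replaced groups without reads. Reads without molecular identifiers are not independent molecules. Alternatives were DESeq2 1.42.0, limma 3.58.1 on log2(FPKM + 1) and log2(FPKM + 0.1) of the deposited values (63 genes marked as failed were left out), other scalings and filters, wider fits, a replicate block, thinned CA3 reads and each library left out.

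Members and lists were chosen with earlier results of these data known, and no list was tested as a set. Genes named by rule were, among called genes at 10 CPM or more without overlap, the first 15 per direction by fold and the first 8 by level among those at least 4-fold apart (predicted, ribosomal protein, small RNA, mitochondrial-genome and sex-linked genes left out), the called member of each list with the smallest p per direction, all members of 4 lists, and 5 interaction genes. Others named were chosen after their values were seen. Some list members enter the counts but are not reported here by name. The fit was tested on simulated counts.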

Additional observations from a re-analysis of the deposited data

Results flagged for a closer look

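The difference between CA3 and DG itself differed between dorsal and ventral cells for the genes below, by edgeR's quasi-likelihood test of the interaction over 12 libraries. These 5 had the smallest p of the 1022 genes called in that test that were also called in dorsal cells and reached 10 CPM. Ano3 had an interaction (dorsal minus ventral log2 difference) of 3.78 (adjusted p = 1.44e-06), Slc1a2 of 2.98 (adjusted p = 5.65e-06) and Tnfaip8l3 of 8.23 (adjusted p = 5.65e-06). Adamts9 gave 12.66 (adjusted p = 5.65e-06), a fitted value that depends on the prior count because dorsal DG had no read. Doc2b gave -7.76 (adjusted p = 1.31e-05).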

How the results depend on the processing

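The 2465 dorsal calls became 4886 in a fit of 18 libraries (2672 higher in CA3, 2214 in DG and 2820 at least 3-fold apart), and 2174 were higher in CA3 in a fit of 48. DESeq2 put 1744 genes higher in DG and called 1912 interactions in place of 1022. Where another scaling, filter, FPKM fit or the thinning was run for a count, it stayed within 1.5 times; the interaction was not refitted with upper-quartile scaling, the 1 CPM filter, FPKM or thinned reads. Leaving out 1 library gave 1104 to 2897 dorsal calls (613 to 1659 higher in CA3, 489 to 1276 in DG, 773 to 1868 at least 3-fold apart), 799 to 1535 shared with ventral cells, 3174 to 3919 ventral calls and 438 to 1589 interactions. The dorsal count moved by over 1.5 times without any one CA3 library, and the interaction count without dorsal CA3 replicate 2 or 3 (488 and 516), dorsal DG replicate 1, 2 or 3 (1563, 1543 and 1589), ventral CA3 replicate 1 or 2 (493 and 438) or ventral DG replicate 1, 2 or 3 (628, 546 and 502). An arm left with 2 libraries shares the spread of the others. Libraries with equal replicate numbers showed no sign of pairing: correlations of their deviations were 0.018, 0.030 and -0.003 in dorsal cells. With 3 libraries per group, such values cannot show whether samples shared an animal or a batch. With the replicate number as a block, 2071 dorsal genes (1276 at least 3-fold apart), 3970 ventral genes and 787 interactions were called, and Prox1 had an adjusted p of 0.18. Of 137 called genes named by rule, 131 had a value in all 18 alternatives, 110 of these kept their call in each, 17 of the 137 lost it when a library was left out, and none reversed. Of 72 further called genes, chosen after their values were seen, 71 had all values, 52 of these kept the call, 14 of the 72 lost it when a library was left out, and none reversed. Simulated 2-fold changes were recovered for 3.19% of 94 genes and 4-fold changes for 27.8% of 97. These changed genes were a far smaller share of 12208 than the 20.2% called in the data. How often such differences were missed in the data was not tested.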
